A study of Mus musculus with 22 samples.

Results

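The baseline transcriptome of the mouse eye was described here from bulk RNA sequencing of the retina together with the choroid, the vascular layer behind it, in eyes without laser injury. These are the 4 libraries titled as having no choroidal neovascularisation (CNV), out of 22 libraries in the series, and they are called libraries 1 to 4. The whole study followed genes of natural killer cells (NK cells, lymphocytes of innate immunity) after laser burns that cause CNV, in wild-type mice and in Rag2-/- and Rag2-/-γc-/- mice, which lack T and B cells and, in the second strain, NK cells as well. The other 18 libraries came from lasered eyes and were not used. All 4 libraries carry the genotype label WT, the tissue label retina+choroid and no time point, and the protocol names the strain as C57BL/6J and the mice as adult. Libraries 1 to 3 have the treatment label none, but library 4 has a treatment label of laser-induced CNV that goes against its own title. The number of genes with a large spread and the sums of several lists, though not of all, are therefore also given without library 4. No label ties the 4 libraries to separate animals, and the spread between them may be technical. The series text calls these animals normal controls of matched age, and no label states a sex. All 4 libraries held transcripts of the Y-linked genes Ddx3y (39.1 to 47.1 TPM), Eif2s3y (76.8 to 89.4 TPM), Kdm5d (9.68 to 12.2 TPM) and Uty (9.52 to 10.5 TPM). Xist, the RNA made from the inactive X chromosome of females, was present at 0.0401 to 0.0682 TPM in them. TPM, a length-scaled level, is the count divided by the length of the gene and scaled to the same sum in each library, so that genes can be ranked within a library.

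The retina converts light to nerve signals. Rod photoreceptors, by far the most numerous cells of the mouse retina, work in dim light and cones work in bright light, and both pass their signal at ribbon synapses to bipolar cells and on to ganglion cells, whose axons form the optic nerve. Müller glia span the retina and support its neurons. The retinal pigment epithelium (RPE) lies between photoreceptors and choroid, recycles the visual pigment and takes up shed outer segments, and the choroid feeds the outer retina through leaky, fenestrated capillaries. The lens and the cornea, at the front of the eye, are made of crystallin-filled fibre cells and of a keratin-rich epithelium, and neither belongs to retina or choroid.

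Photoreceptor genes were among the most abundant in these data and varied little between libraries, as abundant genes in general did. Lens genes varied most. Promoter sequences of both kinds are shown because the factors that are known to drive them, CRX in photoreceptors and large MAF proteins in the lens, bind short motifs that can be read in the letters. Each line is the 120 bases before the RefSeq transcription start on build GRCm38.p6, written 5′ to 3′ on the strand of the gene, and capitals mark TAATCC or its reverse complement GGATTA, the core of the CRX site, in the photoreceptor genes Guca1a (chr17:47400607-47400726, minus strand), Rbp3 (chr14:33953883-33954002, plus strand) and Sag (chr1:87803560-87803679, plus strand).
Guca1a: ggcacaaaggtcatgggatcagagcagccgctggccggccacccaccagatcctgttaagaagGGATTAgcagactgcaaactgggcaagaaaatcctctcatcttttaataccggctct
Rbp3: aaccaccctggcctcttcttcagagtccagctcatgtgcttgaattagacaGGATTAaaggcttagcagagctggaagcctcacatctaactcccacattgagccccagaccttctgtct
Sag: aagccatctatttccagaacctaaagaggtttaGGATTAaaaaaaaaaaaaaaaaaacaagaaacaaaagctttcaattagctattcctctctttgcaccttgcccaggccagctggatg
In these windows the motif began 57, 69 and 87 bases before the start of Guca1a, Rbp3 and Sag. In the next lines capitals mark TGCTGA or its reverse complement TCAGCA, the core of the MAF site, before the lens crystallin genes Cryaa (chr17:31677811-31677930, plus strand) and Cryba1 (chr11:77725294-77725413, minus strand).
Cryaa: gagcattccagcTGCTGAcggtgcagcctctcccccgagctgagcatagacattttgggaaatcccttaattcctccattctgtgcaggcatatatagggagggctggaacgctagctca
Cryba1: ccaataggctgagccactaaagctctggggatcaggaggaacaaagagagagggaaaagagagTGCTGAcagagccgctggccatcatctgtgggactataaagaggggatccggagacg
Both motifs were searched on both strands in the 250 bases before the start, taking the first listed start of each gene, and they do not overlap each other. Of the list of genes shared by rods and cones, 15 of 19 had a promoter entry and 7 of these (46.7%) held TAATCC, as did 4 of 11 rod genes (36.4%) and 2 of 21 lens genes (9.52%). It was also in 4 of 10 RPE promoters (40%), 4 of 13 bipolar (30.8%), 2 of 7 cornea (28.6%), 2 of 9 Müller glia (22.2%) and 2 of 10 cone promoters (20%), and in none of 11 muscle promoters. Across all 27025 promoters the share was 6.38%. TGCTGA was present in 14 of 21 lens promoters (66.7%), in 3 of 7 cornea promoters (42.9%), in 3 of 11 rod promoters (27.3%) and in 15.8% of all promoters. In the other lists searched its share was between 10% (cones) and 30% (RPE). These matches describe letters only, and no binding was measured. The lines shown were chosen because they hold a match. Among other abundant genes looked at, the windows of Prph2, Rom1 and Nrl held no TAATCC and those of Crybb2 and Crygb no TGCTGA, and in Crygs the match lay further upstream than the bases shown for the others.

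The 4 libraries held between 15033983 and 16151836 counts over genes, and between 25355 and 25839 of 54532 genes had a count in each. A mean of at least 1 TPM was reached by 19360 genes, of which 14591 were protein coding, 725 were long intergenic noncoding RNAs and 1187 were processed pseudogenes. Protein-coding genes took 93.6 to 93.7% of all TPM. Transcripts were concentrated: the top 7 genes held 10% of the mean TPM, 77 held 25%, 792 held 50% and 7403 held 90%. Only 78 genes exceeded 1000 TPM and 1735 exceeded 100 TPM, against a median of 14.9 TPM over all genes of at least 1 TPM. Across those 19360 genes the 6 pairs of libraries had a Pearson correlation of log2(TPM + 0.1) of 0.910 to 0.919 and a Spearman correlation of 0.964 to 0.974, which are correlations over genes and not over independent replicates. Genes longer than 6431 bases differed from their own mean by a median of -0.039 (log2) in library 4 and of 0.024 in library 3, the largest such shifts for long genes. All lists for neurons and glia of the retina, for RPE and for vessels had most members above 1 TPM. So did the lists of lens (21 of 22), cornea and conjunctiva (13 of 14) and skeletal muscle (12 of 14). This measure therefore cannot tell the labelled tissue from others.

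Among the most abundant transcripts were those of mitochondrially encoded genes and of photoreceptor genes. mt-Co1, a cytochrome oxidase subunit, ranked first with 23188 ± 2099.8 TPM (SD, n = 4) and mt-Cytb, the cytochrome b of complex III, second with 21885 ± 1294 TPM. Gnat1, the alpha subunit of rod transducin, ranked 5 with 12804, 12777, 14028 and 12506 TPM in libraries 1 to 4. Library 3 was the highest, at 1.12 times the lowest. By counts, with no division by length, Gnat1 ranked 2 with 174182, 161453, 181287 and 154859 counts and mt-Co1 ranked 3. The 30 most abundant genes together held 18.34% of the mean TPM. They included 7 mitochondrially encoded genes, with mt-Nd1, mt-Nd2, mt-Nd6, mt-Nd5 and mt-Nd4 of complex I at 15472 down to 5887 TPM. They also included 10 genes of the photoreceptor lists, among them Prph2 (6263 ± 404 TPM) and Rom1 (4742 ± 369 TPM), the paired tetraspanins that shape the outer segment rim, and Guca1a (4267 ± 277 TPM), which couples calcium to guanylate cyclase. Pdc, phosducin, and Unc119, which carries lipid-tagged proteins such as transducin, had 2457 ± 119 and 2384 ± 147 TPM. Others were Ptgds (3665 ± 450.0 TPM), a prostaglandin synthase, Glul (2881 ± 235 TPM), the glutamine synthetase of Müller glia, Ttr (2873 ± 377 TPM), the thyroxine carrier made by RPE, and Apoe (2405 ± 141 TPM), a lipid carrier. Gnb1, the beta subunit of transducin and of other G proteins, had 3312 ± 168 TPM, Cst3, cystatin C, 2834 ± 242 TPM, and the general genes Eef1a1, Rplp1 and Fth1 had 2718 ± 89.3, 2712 ± 173 and 2493 ± 123 TPM.

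**Figure D1:**
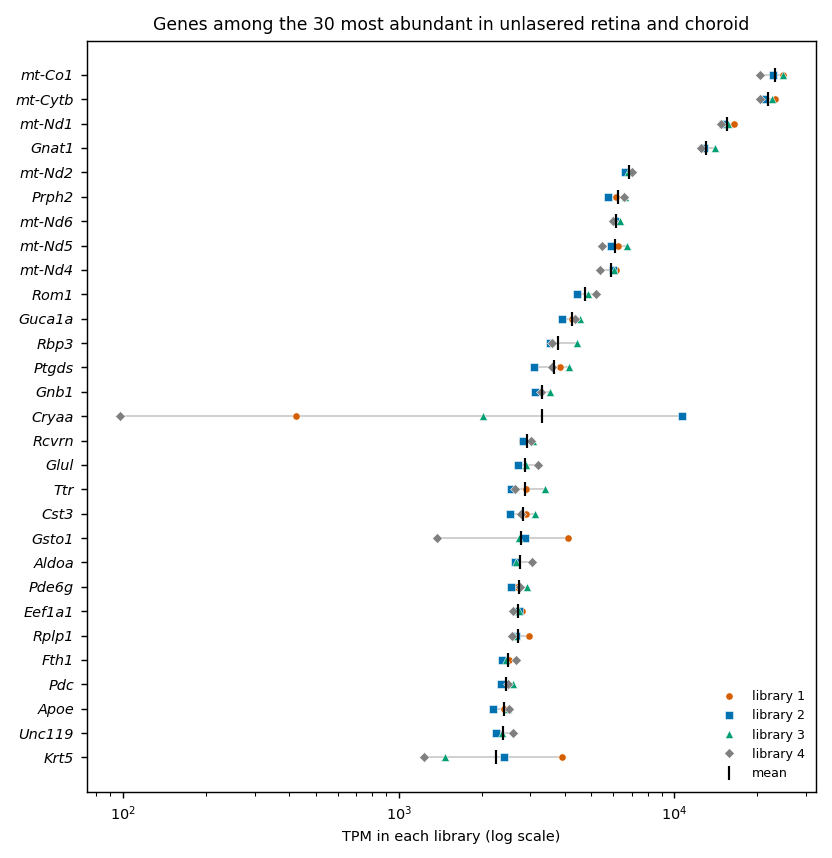
TPM of genes among the 30 with the highest mean TPM (log axis; 1 gene of the 30 is not shown), with 1 symbol per library and a black bar for the mean of the 4 libraries. For all but 3 of the genes shown the 4 libraries lie close together, whereas Cryaa spans 97.4 to 10680 TPM, Krt5 spans 1232 to 3927 TPM and Gsto1 spans 1376 to 4115 TPM.

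Among these 30 genes, 3 had more spread between libraries than genes of their abundance usually have, by edgeR's goodness-of-fit test of each gene against the trended dispersion at an adjusted p under 0.05. They were Cryaa, a lens crystallin, Krt5, a keratin of stratified epithelium, and Gsto1, a glutathione transferase. Over all genes tested, 520 of 16435 (3.16%) exceeded the trend in this way, and every count of list members below is to be read against that share. Cryaa was present at 425, 10680, 2025 and 97.4 TPM in libraries 1 to 4, Krt5 at 3927, 2419.7, 1471 and 1232 TPM and Gsto1 at 4115, 2864, 2731 and 1376 TPM. Library 2 was highest for Cryaa and library 1 for Krt5 and Gsto1, while library 4 was lowest for all 3. Krt5 did not exceed the trend without library 1. A gene that did not exceed the trend is not shown to be equal between libraries.

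The long intergenic noncoding RNAs with the highest levels, named after their values were seen, were the host gene Mir124a-1hg of the neuronal microRNA miR-124 (914 ± 119 TPM), Malat1, a nuclear-retained RNA (878 ± 35.8 TPM), a second miR-124 host gene, Mir124-2hg (537 ± 67.2 TPM), and the imprinted RNA Meg3 (240.2 ± 17.5 TPM). Noncoding genes of other classes were not ranked here.

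Of the 13 protein genes encoded by the mitochondrial genome, 7 had between 5887 (mt-Nd4) and 23188 (mt-Co1) TPM and the other 6 had between 13.3 (mt-Atp8) and 335 (mt-Co2) TPM. The low group holds subunits of the same complexes as the high group: mt-Co2, also of cytochrome oxidase, had 300.1, 343, 325 and 373 TPM and mt-Co3 156, 134, 153 and 137 TPM. For 5 of the 6 low genes, between 98.1 and 100% of the 31-base stretches of their transcripts also occur in transcripts of another gene in GENCODE M21. The share was 0% for mt-Nd1, 6.55% for mt-Cytb and 63.9% for mt-Co1. The sixth low gene, mt-Atp8, shared 7.47% of these stretches, and 21.1% of its length overlaps another gene. How reads that match several genes were counted is not given in the sources used here, so the order of levels within this group is uncertain.

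Rod transcripts made up 4.64, 4.56, 5.08 and 4.56% of all TPM in libraries 1 to 4, a mean of 4.71 ± 0.252% from 16 genes, with library 3 the highest. All 16 passed the filter on low values, none exceeded the trend, and their median coefficient of variation (CV) was 5.45%. The median CV was 9.61% over all genes tested and 5.61% over genes of at least 100 CPM. The rod value was thus near that of abundant genes in general. Of the 16 genes, 15 were highest in library 3, where 24.0% of all genes of at least 1 TPM were highest. Pde6g, the inhibitory subunit of the rod phosphodiesterase, had 2684, 2552, 2909.5 and 2749 TPM. The catalytic subunits Pde6a (1812 ± 146 TPM) and Pde6b (1738 ± 111 TPM) stood in a ratio of 1.04 ± 0.0844 (SD, n = 4). Sag, the rod arrestin that ends the response, had 1865, 1781, 1943 and 1784 TPM, and the channel subunits Cnga1 and Cngb1 had 459 ± 41.8 and 396 ± 25.9 TPM. The lowest of the list was Esrrb, a nuclear receptor of rods, with 313, 343, 370.4 and 364 TPM.

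Genes that rods and cones share added 3.29, 3.21, 3.63 and 3.55% of all TPM, from 19 genes of which none exceeded the trend. After Prph2, Rom1 and Guca1a, the next was Rbp3 with 3592, 3539, 4440.1 and 3595 TPM. Rbp3 encodes the retinoid carrier of the space between photoreceptors and RPE. Library 3 was higher than the others, which lay close together. Rcvrn, a calcium sensor, had 2927 ± 133 TPM, and Gucy2f, a second photoreceptor guanylate cyclase, was the lowest with 94.7 ± 15.1 TPM, below its relative Gucy2e (284 ± 26.9 TPM). The transcription factors that specify photoreceptors were themselves abundant: Nrl, which directs the rod fate, had 1251, 1236, 1403 and 1347 TPM, Crx had 1022, 1066, 1157 and 1160.2 TPM and Nr2e3, which represses cone genes in rods, had 591, 585, 624 and 698 TPM. All 17 retinal transcription factors of the list were above 1 TPM and none exceeded the trend. Prdm1, which marks newborn photoreceptors in development, was the lowest with 14.7, 12.4, 16.3 and 10.3 TPM.

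Cone genes were present at lower levels, 0.27, 0.255, 0.279 and 0.281% of all TPM from 14 genes, of which none exceeded the trend. Opn1sw, the short-wavelength cone opsin, had 491, 423, 519 and 480.4 TPM and Opn1mw, the middle-wavelength opsin, had 321, 300.3, 332 and 340.5 TPM, a ratio of 1.48 ± 0.0800 (SD, n = 4). The rod to cone ratio depended on the pair compared. It was 56 ± 2.56 for the transducins Gnat1 and Gnat2, 53.4 ± 2.92 for the phosphodiesterase inhibitors Pde6g and Pde6h, and 37.6 ± 4.2 for the channel subunits Cnga1 and Cnga3. It was 14.8 ± 1.02 for Pde6a and Pde6c and only 2.84 ± 0.0519 for the arrestins Sag and Arr3. The ranges over the 4 libraries of the Sag ratio and the Gnat1 ratio did not overlap. In bulk tissue, more cells of a type and more RNA per cell cannot be told apart. Arr3, the cone arrestin, was the highest cone gene with 660.3, 634, 667 and 638 TPM, followed by Gnb3, the transducin beta subunit of cones, with 474, 485, 481 and 584 TPM, and Rxrg, a nuclear receptor that restricts the opsin choice, was the lowest with 12.1, 11.5, 10.2 and 12.9 TPM.

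**Figure D2:**
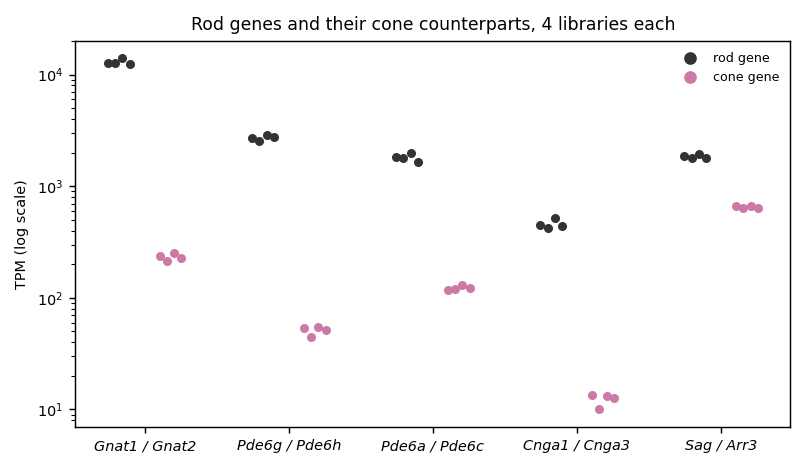
TPM (log axis) of 5 rod genes (black) and their cone counterparts (pink), with 1 point per library in the order 1 to 4. In each pair every rod point lies above every cone point, and the gap is narrowest for Sag and Arr3.

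The ribbon synapse list, 13 genes with none beyond the trend, was led by Slc17a7, the vesicular glutamate transporter, with 1052, 1063, 1151 and 1146 TPM. Cplx4, a complexin of photoreceptor terminals, had 919.6 ± 61.3 TPM and Cabp4, a calcium-binding regulator of the presynaptic channel, had 581 ± 31.9 TPM. The scaffold Pclo was the lowest with 27.1, 31.2, 32.6 and 24.9 TPM. The median CV of the list was 6.2%.

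RPE transcripts made up 0.483, 0.411, 0.574 and 0.442% of all TPM from 12 genes, led by Ttr with 2895, 2553, 3396 and 2647 TPM, Rgr, an opsin that isomerises retinal, with 655, 544, 791 and 581 TPM and Rpe65, the isomerase of the visual cycle, with 446, 318, 533 and 389.7 TPM. Of the 12 genes, 11 were highest in library 3 and 9 were lowest in library 2, against 24.0% and 23.2% of all genes of at least 1 TPM. Lrat, which stores retinol as ester, was the gene of 11 tested that exceeded the trend, with 88.8, 69.8, 137 and 90.7 TPM (edgeR goodness of fit, adjusted p = 0.030). Without library 3 or without library 2 it no longer did. Best1, a chloride channel widely used to mark RPE, had only 1.86, 0.78, 0.762 and 0.909 TPM, although no other gene overlaps it. The visual cycle list, which shares members with RPE and Müller glia, had 12 of 14 genes highest in library 3 and 11 lowest in library 2, and Lrat was the one of 13 tested that exceeded the trend. Behind Rbp3, its highest member was Rlbp1, the retinal carrier of RPE and Müller glia, with 667, 588, 737 and 717 TPM, and its lowest was Rbp4, the retinol carrier of blood, with 1.54, 1.48, 1.63 and 2.83 TPM.

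Most pigment genes had the same libraries at the top and bottom. Mlana had 267, 200.5, 234 and 212 TPM, Pmel, the fibril protein of melanosomes, 183, 120.2, 206 and 205 TPM and Dct, an enzyme of melanin synthesis, 171, 112, 191 and 167 TPM, and Mc1r, the melanocortin receptor of melanocytes, was the lowest with 2.26, 1.84, 1.68 and 2.69 TPM. Of the 12 genes, 9 were highest in library 3 and 10 were lowest in library 2, against 24.0% and 23.2% of all genes of at least 1 TPM. None exceeded the trend. The summed level was 859, 605, 914 and 807 TPM in libraries 1 to 4. Sox10, a factor of neural crest melanocytes and of Schwann cells, had 20.1, 19.95, 25.4 and 23.8 TPM.

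The bipolar list was led by Pcp2 with 143, 135, 143 and 196 TPM, followed by Gng13 (139 ± 20.04 TPM) and Scgn, a calcium sensor of cone bipolar cells (118 ± 10.9 TPM), and Nyx, which anchors the synaptic signalling complex of ON bipolar cells, was the lowest with 10.5 ± 0.544 TPM. Of 15 bipolar genes, 12 were highest in library 4, where 37.9% of all genes of at least 1 TPM were highest, and none exceeded the trend. The highest bipolar sum was 1.23 times the lowest, and 1.07 times without library 4. Slc32a1, the inhibitory vesicular transporter, led the amacrine list with 91.6, 99.2, 101 and 125 TPM, ahead of Gad1 (99.2 ± 9.92 TPM), which makes GABA, and Slc6a9 (93.4 ± 6.65 TPM), which takes up glycine. Th, which marks the rare dopaminergic amacrine cells, was the lowest with 3.86, 4.66, 3.17 and 6.52 TPM. Horizontal cell genes were low, from Onecut2 (1.36 ± 0.0925 TPM) through Onecut3 (4.05 ± 0.45 TPM) and Lhx1 (5.39 ± 0.587 TPM) to Calb1 (42.5 ± 5.48 TPM), which amacrine cells also express. None of the 14 amacrine and 6 horizontal cell genes exceeded the trend.

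Ganglion cell genes had the most regular order between libraries of the neuronal lists. Sncg, gamma-synuclein, had 285, 297, 216 and 321 TPM, Nefl, the light neurofilament, 226, 231, 187 and 269 TPM and Thy1 170.5, 179, 142 and 209 TPM. Library 3 was the lowest for all 13 members and library 4 the highest for 11, against 21.2% and 37.9% of all genes of at least 1 TPM. None of the 13 exceeded the trend on its own, and the sum over the list was 995, 1032, 811 and 1181 TPM, 1.46 times as high in library 4 as in library 3. Without library 4 the highest sum was 1.27 times the lowest, and library 3 was still the lowest for all 13. Opn4, the melanopsin of light-sensing ganglion cells, was the lowest with 7.07, 7.04, 6.97 and 7.02 TPM. On TMM-scaled CPM its CV was 2.56%, against at least 11% for the other members.

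**Figure D3:**
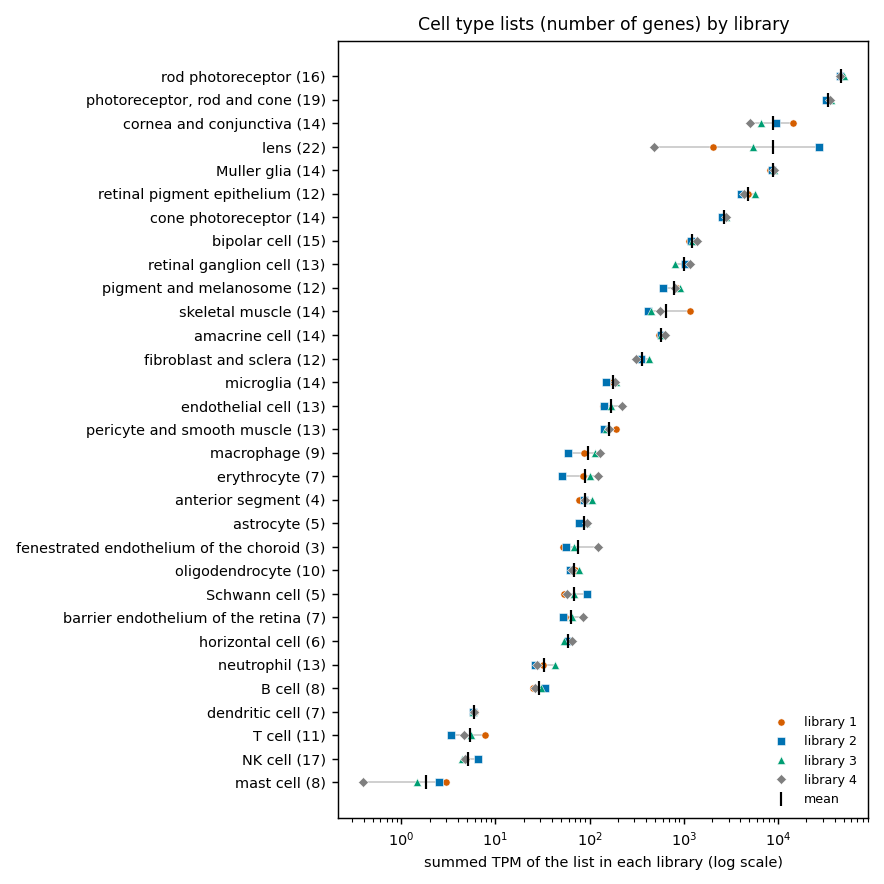
Summed TPM (log axis) of the 31 cell type lists in each library, with the number of genes in each list and a black bar for the mean of 4 libraries. The rod list and the list shared by rods and cones are the highest with all libraries close together, the lens list spans 487 to 27378 TPM, and T cell, NK cell, dendritic cell and mast cell lists each sum to under 8 TPM in every library.

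Müller glia were represented by 14 genes with 0.832, 0.859, 0.915 and 0.919% of all TPM. Glul had 2700.2, 2720.5, 2897 and 3208 TPM, Apoe 2403, 2207, 2499.7 and 2511 TPM and Clu, clusterin, 1066, 1284, 1305 and 1129 TPM, and Sox9, the factor that keeps Müller identity, was the lowest with 27, 24.9, 27.9 and 26 TPM. Vim, an intermediate filament of glia that lens cells also make, was the member that exceeded the trend, with 112, 263, 166 and 135 TPM (edgeR goodness of fit, adjusted p = 0.00029). It was highest in library 2, the library with the highest lens sum, and without library 2 it no longer exceeded the trend. Whether lens RNA contributed to it was not tested. The astrocyte list was led by S100b (43.3 ± 4.75 TPM), Gfap (19.7 ± 2.06 TPM) and Aldh1l1 (13.9 ± 1.13 TPM), and Pax2, of optic nerve head astrocytes, was the lowest with 0.617, 0.576, 0.607 and 1.04 TPM.

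The gliosis and stress list holds genes that rise when the retina is injured. Gfap, the glial filament, was present at 20.1, 16.7, 20.9 and 21.1 TPM, Serpina3n at 65.3, 58.1, 70.4 and 70.2 TPM, Stat3 at 32.2, 33.2, 31.4 and 28.8 TPM and Edn2, a photoreceptor stress signal, at 13.2, 14.9, 10.3 and 12 TPM. Fgf2 had 11.5 ± 0.99, A2m 22.3 ± 4.9, Cebpd 16.9 ± 4.2, Lcn2 7.12 ± 1.49, Osmr 6.87 ± 1.41, Socs3 6.84 ± 0.255, Timp1 4.85 ± 2.22 and Bcl3 3.99 ± 0.85 TPM. Lif (0.783 ± 0.162 TPM) and Ccl2 (0.304 ± 0.256 TPM), the monocyte chemokine, were below 1 TPM and were not tested. None of the 12 tested members exceeded the trend. Library 4, the one with the laser treatment label, was the highest for 2 of the 12, against 37.9% of all genes of at least 1 TPM. The summed level of the list in library 4, 209 TPM, lay inside the range of the other 3 libraries, 191 to 229 TPM. The microglia and complement sums were not highest in library 4 either, but the macrophage and endothelial sums were. The highest macrophage sum was 2.22 times the lowest, and 1.94 times without library 4. Whether the label bears on any of these sums was not tested. By edgeR's test, 386 genes of 16455 exceeded the trend without library 4. Immediate early genes, which respond within minutes to stimulation and dissection, were led by Btg2 (111 ± 6.32 TPM), Junb and Jun (58.4 ± 2.55 TPM). Junb had 98.6, 58.1, 52.2 and 52.7 TPM, highest in library 1, and was the one of 14 tested that exceeded the trend (adjusted p = 0.0083), though not without library 1 or without library 3. Egr2 was the lowest with 0.131, 0.0705, 0 and 0.072 TPM.

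Resident immune cells were present at low levels and lymphocytes near the floor. The microglia list summed to 179, 148, 189 and 187 TPM over 14 genes, among them the complement genes C1qa (39.6, 33.4, 45.1 and 48.7 TPM) and C1qb (29.7 ± 5.8 TPM). The microglial genes P2ry12 and Cx3cr1 had 2.09 ± 0.321 and 2.27 ± 0.627 TPM, and Siglech was the lowest with 1.84, 1.28, 0.277 and 0.94 TPM. Sall1 exceeded the trend with 0.973, 4.6, 1.51 and 1.35 TPM (adjusted p = 0.0053), highest in library 2, and not without that library. Lyz2, lysozyme of macrophages and neutrophils, had 52.3, 31, 78.4 and 94.8 TPM and led the macrophage list, followed by Cd68 (14.4 ± 1.12 TPM) and Lyve1 (12 ± 3.14 TPM). Ccr2, of blood monocytes, was the lowest with 0.198, 0.142, 0.416 and 0.0362 TPM. Of 6 tested macrophage genes, 2 exceeded the trend, Lyz2 (adjusted p = 0.00034) and F13a1 (adjusted p = 0.0072), the first not without library 2 and the second not without library 4.

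The NK cell list, the subject of the whole series, summed to 4.92, 6.54, 4.36 and 4.7 TPM over 17 genes, and none reached the 1 CPM needed for the test. Its genes took 43, 40, 35 and 30 counts in libraries 1 to 4, or 0.000266% of 16151836 counts in library 1 (95% Wilson interval 0.000198 to 0.000359%, covering counting error only). Ncr1 and Klre1, receptors that define NK cells, had 0 counts in all 4 libraries, which allows up to 3 counts in each, or 0.186 to 0.200 CPM. Prf1 and Klrb1c each had counts in 1 library only, at means of 0.0215 and 0.0207 TPM. Ccl5, a chemokine also made by T cells and macrophages, was the highest with 2.55, 3.25, 1.46 and 0.51 TPM, followed by Gzma (0.221, 1.43, 0.932 and 1.22 TPM) and Tbx21 (0.179, 1.25, 0.471 and 0.787 TPM). Il2rb had 0.39 ± 0.303, Gzmb 0.326 ± 0.231, Klrd1 0.19 ± 0.27, Nkg7 0.189 ± 0.244, Xcl1 0.117 ± 0.234, Klra8 0.0992 ± 0.115, Txk 0.095 ± 0.0819, Klra4 0.0481 ± 0.0963, Ifng 0.0452 ± 0.0905 and Klrk1 0.0241 ± 0.0311 TPM. Summed T cell genes reached 7.82, 3.38, 5.51 and 4.69 TPM, with Lck, which retinal neurons also express, the highest at 1.35 ± 0.53 TPM, the receptor chain genes Trac and Trbc2 at 0.806 ± 0.433 and 0.765 ± 0.641 TPM, and Cd3e the lowest at 0.0437 ± 0.0552 TPM. In the B cell list Jchain, the joining chain of secreted antibodies, had 19.7, 24.4, 21.4 and 21.3 TPM, while the immunoglobulin genes Igkc and Ighm had 3.44 ± 1.96 and 1.84 ± 0.214 TPM and Pax5, the B cell identity factor, had 0.0503, 0.0542, 0.0794 and 0 TPM. Neutrophil genes summed to 26.5 to 43.3 TPM, mostly from Mmp9 (17.5 ± 2.75 TPM) and Ltf (11.5, 2.15, 16.6 and 4.18 TPM), which epithelial glands also secrete. S100a9 had 2.99, 2.3, 6.29 and 0 TPM, and the neutrophil-restricted Elane and Mmp8 had 0 counts. Dendritic cell genes summed to 5.73 to 6.14 TPM, led by Zbtb46 (2.57 ± 0.313 TPM), Flt3 (1.91 ± 0.303 TPM) and Itgax (0.467 ± 0.218 TPM), with Clec9a lowest (0.162 ± 0.154 TPM), and mast cell genes to 0.388 to 3 TPM, led by Tpsb2 (0.586 ± 0.481 TPM), Mcpt4 (0.468 ± 0.543 TPM) and Cma1 (0.423 ± 0.386 TPM), with Mrgprb1 at 0 counts. Ltf was the one of 2 tested neutrophil genes that exceeded the trend (edgeR, adjusted p = 7.86e-08). Haemoglobin transcripts of blood were present, Hba-a1 at 45, 34.5, 61.8 and 72.3 TPM, with library 2 the lowest, although 75.5% of its 31-base stretches also occur in other genes. Hba-a2 and Hbb-bs had 13.8 ± 5.71 and 13.4 ± 6.29 TPM, and Slc4a1, the anion exchanger of red cells, was the lowest of the list with 0.0228 ± 0.0455 TPM.

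Endothelial genes were highest in library 4, although none of them passed the test of spread. Kdr, the main VEGF receptor, had 44.2, 43.1, 46.4 and 52.1 TPM and Flt1, its decoy relative, 19.9, 20.1, 25 and 25.8 TPM. Esam, an adhesion molecule of endothelial junctions, had 18.7, 17.5, 19.8 and 28.6 TPM, and Erg, an endothelial transcription factor, was the lowest with 1.8, 1.73, 1.08 and 3.95 TPM. All 13 endothelial genes were highest in library 4, where 37.9% of all genes of at least 1 TPM were highest, and the summed level was 141, 142, 167 and 220.3 TPM. The highest sum was 1.57 times the lowest with all 4 libraries and 1.19 times without library 4, when 11 of the 13 genes were highest in library 3. Plvap, the diaphragm protein of fenestrated capillaries of the choroid, had 32.8, 35.9, 35.4 and 75.8 TPM and did exceed it (edgeR goodness of fit, adjusted p = 0.0037), but not without library 4. Cldn5, the tight junction protein of barrier vessels of the retina, had 15.4, 13.5, 15.2 and 33.3 TPM. It did not exceed the trend (edgeR goodness of fit, adjusted p = 0.35), although library 4 lay well above libraries 1 to 3. Plvap stood to Cldn5 in a ratio of 2.35 ± 0.222 (SD, n = 4), and both genes were highest in library 4. The transporters Slco1a4 and Slco1c1 of barrier vessels had 15.3 ± 2.54 and 12.7 ± 1.91 TPM and Lef1 0.512 ± 0.151 TPM. Rgcc had 18.2, 19.3, 32.4 and 47.2 TPM, and Car4, the carbonic anhydrase of choroidal capillaries, 1.02, 1.34, 0.954 and 1.24 TPM. The pericyte gene Rgs5 had 24.1, 21.9, 32.8 and 53 TPM, again highest in library 4 (adjusted p = 0.00048), and not beyond the trend without it. Smooth muscle genes had another order: Acta2 had 83, 61.1, 61.3 and 47.8 TPM, Myh11 16.9, 9.49, 8.82 and 6.99 TPM and Notch3 26.4, 13.6, 9.62 and 9.12 TPM, each highest in library 1 and lowest in library 4. Tagln was the lowest with 0.824 ± 0.196 TPM, although 67.9% of its exon length overlaps another gene. Of 9 tested genes of pericytes and smooth muscle, 4 exceeded the trend, Rgs5, Notch3, Des and Myh11, and the last 3 did not without library 1, which also had the highest skeletal muscle and cornea sums. Whether those tissues contributed was not tested.

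Of the angiogenic factors, Vegfa had 163, 179, 170.3 and 198 TPM and Serpinf1, the antiangiogenic pigment epithelium-derived factor, 26.6, 21.2, 28.9 and 33.6 TPM, a ratio of 6.59 ± 1.23 (SD, n = 4). The hypoxia-inducible factors Hif1a (273 ± 13 TPM) and Epas1 (213 ± 16.1 TPM) were the highest of the list and the apelin receptor Aplnr the lowest (0.143 ± 0.0317 TPM). Pdgfb was the member of 18 tested that exceeded the trend, with 2.94, 1.96, 2.87 and 7.58 TPM (adjusted p = 0.045), and it lost the call without library 2, 3 or 4. Complement genes were led by Cd59a (72.5 ± 2.74 TPM), which blocks the membrane attack complex, Cfp (49 ± 4.55 TPM) and Serping1 (42.3 ± 3.47 TPM), and Cfb was the lowest with 0.436 ± 0.422 TPM, although 79.5% of its exon length overlaps another gene. None of 14 tested exceeded the trend. In the fibroblast and sclera list Fbln1 (80.8 ± 11.2 TPM), Col6a1 (71 ± 6.97 TPM) and Dcn (68.4, 48.8, 76.7 and 43.3 TPM) were highest and Mfap5 lowest (2.49 ± 0.647 TPM). Dcn, Ogn and Dpt exceeded the trend of 12 tested, and each lost the call without library 4. Oligodendrocyte genes, whose cells are absent from the mouse retina but line the optic nerve, were led by Ermn (24.5 ± 4.99 TPM), Mbp (20.1 ± 2.63 TPM) and Cnp (13.7 ± 2.24 TPM), which other cells also express, while the lineage factor Olig2 had 0 counts. The myelin protein Pmp22 led the Schwann cell list with 46.2, 83.4, 63.6 and 51.4 TPM, ahead of Ncmap (3.2 ± 1.33 TPM), and Egr2 was the lowest. Prx exceeded the trend with 1.2, 4.98, 2.06 and 0.877 TPM (adjusted p = 0.00072), highest in library 2, where the lens sum was highest, and not without that library.

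Glycolytic genes were abundant, with a median of 389 TPM over the list. Aldoa, an aldolase, had 2682, 2642, 2659 and 3053 TPM, Pkm, pyruvate kinase, 1989, 1985, 1974 and 2119.6 TPM and Eno1, an enolase, 1505, 1524, 1564 and 1639 TPM. Ldha, the lactate dehydrogenase subunit that favours lactate, stood to Ldhb in a ratio of 2.87 ± 0.278 (SD, n = 4), and Hk2, a hexokinase found in photoreceptors, to the ubiquitous Hk1 in a ratio of 0.978 ± 0.0199. Slc16a8, the lactate transporter of RPE, had 202, 187, 255 and 212 TPM and Slc2a1, the glucose transporter, 304, 324, 373 and 365 TPM. Slc16a3, a lactate exporter, was the lowest of the list with 36.6, 39.3, 38.8 and 41 TPM. Of 21 genes, 13 were highest and none was lowest in library 4, against 37.9% and 22.9% of all genes of at least 1 TPM. On TMM-scaled CPM 30.6% of all genes tested were highest in library 4. Only Gapdh exceeded the trend. Gapdh, used as a constant reference in many assays, had 30.9, 36.4, 142 and 36.6 TPM (adjusted p = 1.47e-22) and ranked 3131, far below its neighbours in the pathway, Tpi1 (800.3 ± 46.3 TPM) and Pgk1 (912 ± 22.3 TPM). Library 3 stood alone, 3.88 times above the next. Of the 31-base stretches of Gapdh transcripts, 28.1% occur in transcripts of other genes. Without library 3 it no longer exceeded the trend.

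Other reference genes for quantitative PCR were steadier. Pgk1 had 889, 896, 929 and 933 TPM and a CV of 0.907% on the scaled counts, Tbp 13.8, 13.8, 14.2 and 13.7 TPM (2.59%), Hprt 345, 342, 373 and 361 TPM (3.05%), Ppia 416, 438, 420.3 and 425 TPM (3.1%) and Ywhaz 287, 284, 277 and 305 TPM (3.21%). The CV was 3.78% for Tfrc, 4.65% for Sdha, 7.08% for Polr2a and 11.4% for Gusb. Actb had 725, 668, 619 and 599 TPM (10.7%), Rplp0 1015, 887, 737 and 697 TPM (19.5%) and B2m 546, 373, 559 and 368 TPM (23.6%). Actb and Rplp0 were highest in library 1 and B2m was higher in libraries 1 and 3 than in 2 and 4. Rpl13a, at 20.9, 23.2, 24.1 and 23 TPM (5.2%), was far below the median of 321 TPM of cytosolic ribosomal protein genes, with 28.3% of its 31-base stretches in other genes and 35.4% of its exon length under another gene. Apart from Gapdh, none of the 16 exceeded the trend.

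Ribosomal protein genes, 85 by symbol with 83 of at least 1 TPM, were highest in library 1 for 68 of these 83, against 20.7% of all genes of at least 1 TPM, and their sum was 36591, 32819, 32559 and 32390 TPM. Of 82 tested, 5 exceeded the trend and are named for that reason: Rps27, Rps27rt, Rps27a, Rpl17 and Rpl7a. Rps27 had 424, 266, 241 and 189 TPM while Rps27rt had 162, 469, 566 and 639.7 TPM, the reverse order, and 92.7% of the 31-base stretches of Rps27rt occur in other genes, so that reads may be split between near-identical copies.

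Clock genes oscillate over the day, and the labels do not state the time at which tissue was taken. None of the 17 genes of the list exceeded the trend. Nr1d1, the repressor REV-ERB alpha, was the highest with 218, 215, 217 and 261 TPM, Dbp had 155, 159, 156 and 216 TPM and Tef 154, 150.4, 150.1 and 164 TPM. Of the core activators, Arntl had 38.5, 36.1, 38 and 37.8 TPM and Clock had 32.9, 33.1, 33.4 and 28.5 TPM, and Npas2 was the lowest with 3.07, 3.05, 1.86 and 2.14 TPM. Nr1d1, Dbp and Ciart (37.3, 33, 37.5 and 55.5 TPM), all targets of the core clock, were highest in library 4, with the other 3 libraries close together. The highest sum of the list was 1.14 times the lowest, and 1.02 times without library 4. Per1 had 98.2, 89.3, 104 and 94.8 TPM and Per2 37.5, 40.2, 40.2 and 35.3 TPM. Ciart, Per1, Per2, Arntl and Clock were named after their values were seen.

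Across all genes, the 4 libraries differed with a common biological CV of 15.4%, the spread beyond counting noise that edgeR estimates. The median CV of a gene was 9.61%, with 80% of genes between 3.76 and 30.9%, and it fell from 22.5% for genes of 1 to 5 CPM to 5.61% for genes of at least 100 CPM. By the CV of TMM-scaled CPM, the steadiest gene of at least 100 CPM was Edc4, a decapping scaffold (0.316%). Its TPM values, on which this CV is not based, were 92.1, 93.6, 94.7 and 96.7. Next came Sbf1 (0.346%), Csnk1d, a casein kinase (0.359%), and Napb, which recycles fusion complexes at synapses (0.495%). Socs7, Chd3, Eif3c, Ppm1a, Apeh and Pafah1b1 followed with CVs of 0.513 to 0.793%. These genes were chosen for their low CV among 2231, so the values describe them and test nothing.

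**Figure D4:**
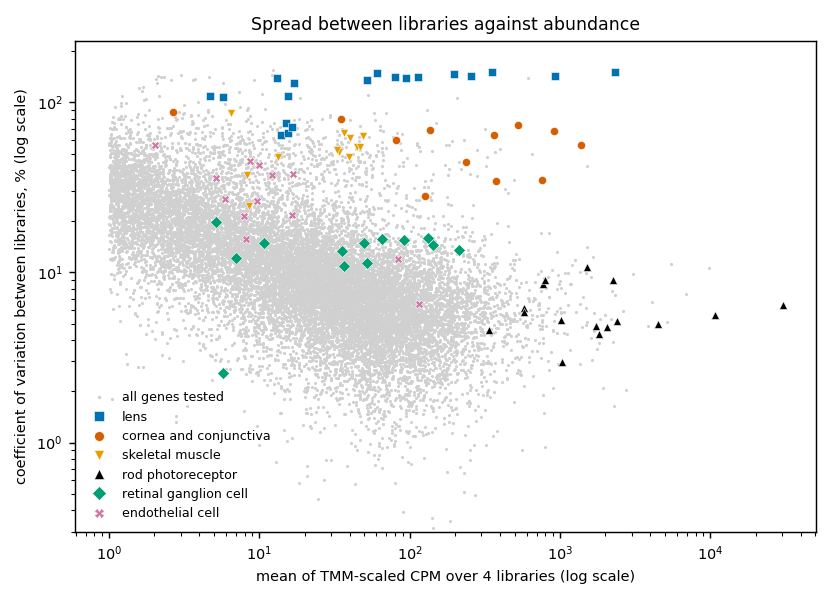
Coefficient of variation between the 4 libraries against mean TMM-scaled CPM, both on log axes, for the 16435 genes tested (grey) and for 6 lists (coloured symbols). Lens and cornea genes lie above most genes of their abundance, as do 10 of 12 muscle genes, and rod genes lie inside the cloud at the high end.

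The 520 genes beyond the trend had a median CV of 56.1%, and 493 were protein coding. They were unevenly placed: 366 (70.4%) were highest in library 1, 108 (20.8%) in library 2, 31 (5.96%) in library 3 and 15 (2.88%) in library 4, against 26.0, 20.7, 22.7 and 30.6% of all genes tested. On TMM-scaled CPM, library 4 was the lowest for 392 of them. The share of all genes tested that were lowest in library 4 was not computed on that scale. On TPM, 22.9% of all genes of at least 1 TPM were lowest in it. Without library 1, 289 of 16404 genes exceeded the trend. Of the 42 lists, those of lens, cornea and conjunctiva, and skeletal muscle held 41 of the 60 list genes that exceeded the trend. These lists are of tissues outside the dissected retina and choroid.

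Of all lists, the lens list had the highest median CV, 138%. The list summed to 2059.8, 27378, 5390.2 and 487 TPM, or 0.206, 2.74, 0.539 and 0.0487% of all TPM, in libraries 1 to 4, so that library 2 held 56.2 times the level of library 4. Without library 4 the highest sum was 13.3 times the lowest. All 19 members that passed the filter exceeded the trend, and 18 or 19 did without library 2, 3 or 4 and 17 without library 1. The mean share of 0.883% of TPM was 0.265% without library 2. Cryaa, alpha A crystallin, is given above, with an adjusted p of 3.47e-77. Crybb2, a beta crystallin, had 421, 5133, 983 and 92.8 TPM, Crygs, gamma S crystallin, 248, 3283, 662 and 46.1 TPM and Mip, the water channel of lens fibres, 4.98, 323, 79.4 and 1.14 TPM. Library 2 was followed by library 3 for all of these, and library 4 was lowest for each. Cryab, a small heat shock protein that retina also makes, had 275, 4551, 977 and 183 TPM in the same order.

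The clustered gamma crystallins on chromosome 1 had another order. Crygb had 178, 56.3, 65.4 and 41.3 TPM, Crygc 106, 89.96, 36.4 and 23 TPM and Crygd 107, 37.3, 45.4 and 30.2 TPM, each highest in library 1 and lowest in library 4. Crygb stood to Cryaa in ratios of 0.42, 0.00527, 0.0323 and 0.424 in libraries 1 to 4, so libraries 1 and 4, with the lowest Cryaa, shared the higher ratio. Crygb and Crygd no longer exceeded the trend without library 1, and Cryga was listed at 0 counts in all 4 libraries, with 47.9% of its exon length under another gene. Retinal neurons are also known to make gamma crystallins, and their part in these levels was not tested.

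Most of the 20 genes with the highest CV among those beyond the trend followed the lens. Besides 10 of the lens list and Cryab, they were Cubn, an endocytic receptor, with 0.492, 9.82, 1.32 and 0.229 TPM, Gja3, a lens connexin, with 0.902, 45.3, 12.7 and 0.165 TPM, Pitx3, a lens transcription factor, with 0.292, 22, 6.3 and 0 TPM, Sox1 with 0.138, 5.21, 1.6 and 0 TPM, and Wnt7a with 0.14, 7.56, 2.36 and 0 TPM. Srd5a2, a steroid reductase, had 0, 24.6, 9.05 and 0.152 TPM, and the noncoding or unnamed genes Sox1ot, Gm43247 and 7530428D23Rik had the same order. All 20 were highest in library 2 and second in library 3.

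Cornea and conjunctiva genes summed to 14611, 9518, 6672 and 5029 TPM in libraries 1 to 4, 1.46, 0.952, 0.667 and 0.503% of all TPM, and all 12 that passed the filter exceeded the trend. Krt12, the keratin of corneal epithelium, had 1974, 1179.7, 309 and 616 TPM (adjusted p = 5.61e-17). Aldh3a1, the corneal crystallin enzyme, had 3080, 2068, 677 and 920.4 TPM and Krt15, a keratin of basal cells, 2062, 1409.7, 1918 and 888 TPM. Library 1 was highest for Krt12, Aldh3a1 and Krt15, library 3 lowest for the first 2 and library 4 lowest for Krt15. Krt4, a keratin of conjunctiva and other moist epithelia, had 441, 329, 636 and 214 TPM and was highest in library 3. Krt12 stood to Krt4 in ratios of 4.48, 3.59, 0.485 and 2.87, so library 3 was the one with more Krt4 than Krt12. The lowest member was Ly6d with 0.599, 0, 0.315 and 0.986 TPM. Without library 1, 9 of 12 tested members exceeded the trend, and without library 4, 9 of 13. Of the exon length of Krt12, 54.4% overlaps another gene.

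Skeletal muscle genes, of the kind found in the muscles that move the eye, summed to 1156, 416, 451 and 556 TPM, and 10 of 12 tested exceeded the trend. Mylpf, a fast myosin light chain, had 274, 104, 109 and 125 TPM (adjusted p = 2.01e-07), Tnnt3, a fast troponin, 191, 71.5, 70.03 and 98.1 TPM and Tnni2 184, 62.9, 60.1 and 82.7 TPM. Library 1 was highest for all 12 members of at least 1 TPM, against 20.7% of all genes, and libraries 2 and 3 were each the lowest for 6. Myh13, the myosin of extraocular muscle, was the lowest with 0.036, 0, 0.0379 and 0.0792 TPM. Without library 1 none of the 12 exceeded the trend. Of 4 genes of the anterior segment, Optc, made by the ciliary body, had 49.5, 61.8, 64.6 and 49.4 TPM and Myoc 23, 17.5, 34 and 32.7 TPM. Msx1, the lowest, exceeded the trend with 1.29, 5.73, 1.97 and 1.5 TPM (adjusted p = 0.016), highest in library 2, and not without that library.

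**Figure D5:**
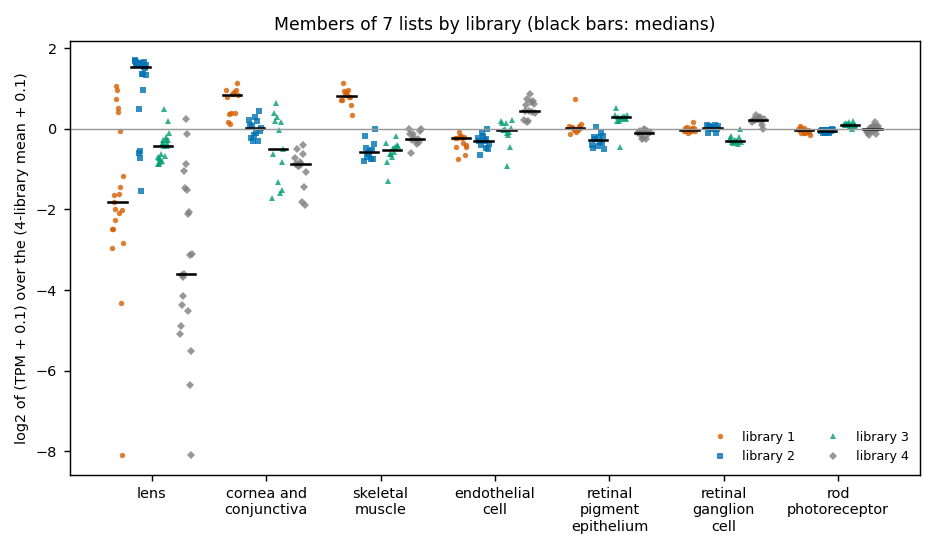
Level of each member of 7 lists (of at least 1 TPM) in each library, as log2 of (TPM + 0.1) over the 4-library mean + 0.1, with black bars at the medians of a library. Lens members span several log2 units with library 2 on top for most, muscle members and 11 of 13 cornea members are highest in library 1, all endothelial and 11 of 13 ganglion cell members in library 4 and 11 of 12 RPE members in library 3, and rod members lie near 0.

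With the lens, cornea and muscle lists left out of the total, the mean rod share was 4.80% in place of 4.71%. With the same lists left out of the fit, 517 of 16424 genes exceeded the trend and the common biological CV was 14.0%. By summed TPM over these lists, the order was rods (45572 to 50839 TPM), genes of rods and cones (32121 to 36321 TPM), Müller glia (8324 to 9186 TPM), RPE (4110.4 to 5740.3 TPM), cones (2548 to 2809 TPM) and bipolar cells (1137 to 1393 TPM), and these 6 ranges did not overlap. Ganglion cell genes (811 to 1181 TPM), pigment genes (605 to 914 TPM) and amacrine genes (542 to 639 TPM) followed, each with a range that overlapped that of its neighbour above. Lists differ in the number and choice of genes, so these sums order transcripts and not cells.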

How the data were processed

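Bulk RNA sequencing of retina and choroid from mice without CNV gave 4 libraries. The authors deposited raw counts per gene, made with featureCounts 1.5.0-p3 on mm10, per the submitters' processing notes. Which aligner, annotation release and strand setting were used is not stated in the sources at hand. The deposited FPKM values equal the counts divided by gene length and by a constant per library, and TPM was computed by rescaling the FPKM to the same sum in each library. Of the gene models, 98.01% had the exon length of GENCODE M21. Total counts were 16151836, 15181209, 15778735 and 15033983 in libraries 1 to 4, and intervals and floors (3 counts) cover counting error only. Every per-sample column of the table matched a sample, and columns of lasered eyes and the Rag2 table were not used.

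With 1 group there was no contrast. Genes of a mean of at least 1 CPM were fitted with edgeR 4.0.16 in R 4.3.3 (intercept only, TMM scaling, robust dispersion), and each was tested by goodness of fit against the trended dispersion with 3 residual degrees of freedom and Benjamini-Hochberg adjustment over all genes. CVs are of TMM-scaled CPM and levels are TPM, with SD over 4 libraries. Alternatives were RLE factors, library totals, other filters, DESeq2 1.42.0 dispersion outliers and leaving out each library. The 42 lists held 521 entries, all matched. Members and lists were chosen with earlier results of these data known. Named genes are the 30 highest by TPM, the 20 genes beyond the trend with the highest CV, the 10 steadiest of at least 100 CPM, the 3 highest and the lowest member of each list, and all NK cell, sex-linked, reference and gliosis genes; other list members named in the text were chosen after their values were seen. A few genes selected by the rule are not reported here, although list sums and counts include them. Ribosomal protein symbols were trimmed of kinases and pseudogenes by name. Promoters are RefSeq sequences on GRCm38.p6.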

Additional observations from a re-analysis of the deposited data

Results flagged for a closer look

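In 246 sets of 4 library values (named genes that passed the filter, list sums and library measures), 26 had 1 library whose distance from its nearest neighbour took up a larger part of the whole range than the 95% limit of Dixon's test for 4 values allows. That is 10.6%, where chance alone flags about 1 in 20 groups. The sets are not independent of each other, and some of the genes were picked for a high or a low CV between these same libraries. The share of 10.6% therefore cannot be tested against that rate. The library apart was library 4 in 11 sets, library 3 in 6, library 2 in 5 and library 1 in 4.

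Library 4 stood apart as the highest for Nr1d1 (0.942 of the range), Dbp (0.930), Plvap (0.928), Pax2 (0.911), Cldn5 (0.906), Aldoa (0.901), Pkm (0.894), Gnb3 (0.893), Pcp2 (0.869) and the summed circadian clock list (0.866). It was the lowest for the share of TPM held by the 30 highest genes of each library (0.879), with 17.6% against 19.0 to 19.2% in the others. The gene and list values are TPM, and on TPM 37.9% of all genes of at least 1 TPM were highest in library 4. On TMM-scaled CPM 30.6% of all genes tested were highest in it. Whether the named genes also stand apart on scaled CPM was not tested, and the gaps of Aldoa and Pkm are small. The treatment label of library 4 goes against its title, and whether that bears on these values was not tested.

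Library 3 stood apart as the highest for Gapdh (0.948), Rbp3 (0.938), Fbln1 (0.868), Cplx4 (0.861), the summed rod list (0.846) and Tbp (0.839). Library 2 did so for Cubn (0.886), Msx1 (0.848), Cryba4 (0.843), Cryba1 (0.840) and Crybb1 (0.837), of which all but Msx1 are among the 20 genes of highest CV. Library 1 did so for the summed ribosomal protein list (0.898), Mylpf (0.876), Junb (0.871) and the summed immediate early list (0.843).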

How the results depend on the processing

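The number of genes beyond the trend ranged from 289 without library 1 to 460 without library 2 when a library was left out, against 520 with all 4, and was 370 as DESeq2 dispersion outliers (356 of them shared with the 520). Other scalings and filters gave 440 to 522. The rod share of 4.71% was 6.24% as a share of counts and 5.19% of TPM without mitochondrially encoded genes. The lens share of 0.883% was 0.455% as a share of counts, and 0.265% without library 2. Genes detected ranged from 13891 at 5 TPM to 21915 at 0.5 TPM, and genes that hold 50% of transcripts from 768 to 1185. Of 60 list genes beyond the trend, 24 were so under each of 10 settings in which they were tested, and 36 lost the call under at least 1, among them 20 without library 1. The alternatives without the lens, cornea and muscle lists, and list sums without library 4, were chosen after seeing the data. No paired analysis was possible because only 1 group was described. NK cell genes took at most 43 counts over the list in a library, so their levels carry a large counting error.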

Other observations

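The lists described here were put together after their values were seen, so their values and counts are given with no test. Of all genes of at least 1 TPM, 20.7% were highest in library 1. Interferon-stimulated genes, which infected or activated cells switch on, were highest in library 1 for all 23 members of the list. Ifit1 had 59.3, 23.6, 15.2 and 14.9 TPM in libraries 1 to 4, Isg15, a ubiquitin-like modifier, 164, 86.2, 42.8 and 53.1 TPM, Oas2, a sensor of double-stranded RNA, 28.7, 13.9, 6.9 and 5.5 TPM and Ifi27l2a 188, 76.1, 43 and 70.3 TPM. The members differed in size of difference: Rsad2, an antiviral enzyme, had 7.96, 1.71, 0.811 and 2.48 TPM and Mx1 4.24, 0.317, 0.557 and 1.23 TPM, whereas Ifit2 had 12.1, 9.77, 10.3 and 10.5 TPM. Library 1 also had the highest cornea and muscle sums, and the part of those tissues in the interferon genes was not tested. Genes of epithelial junctions included Perp at 489, 347, 249 and 189 TPM, Dsp, desmoplakin, at 153, 91.2, 58.1 and 39.5 TPM and Dsc3 at 80.2, 47.7, 26.9 and 15.1 TPM, and library 1 was the highest for all 12.

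Basement membrane genes were highest in library 2 for 14 of 15 members. Col4a1, a type IV collagen chain, had 21.4, 247, 112 and 24 TPM, its partner Col4a2 20.7, 159.6, 78.9 and 28.3 TPM and Nid1, nidogen, 6.48, 69.3, 29.7 and 4.4 TPM, while Lamb2, a laminin chain, had 29.5, 33.8, 32.9 and 31.9 TPM. The lens capsule is a basement membrane, and library 2 was also the one with the highest lens sum. Foxe3, the factor of lens epithelium, had 0, 109, 44.1 and 0 TPM, and the libraries at 0 did hold crystallin transcripts, Cryaa at 425 and 97.4 TPM. Genes of secretory epithelium were highest in library 3 for all 8 members of at least 1 TPM, as Krt4 was. Krt19 had 148, 88.9, 223 and 51 TPM, Krt7 20.2, 9.66, 35.6 and 7.77 TPM, Ltf, lactoferrin, 11.5, 2.15, 16.6 and 4.18 TPM and Wfdc18 10.9, 2.75, 20.6 and 3.61 TPM. Of all genes of at least 1 TPM, 17.4% were highest in library 2 and 24.0% in library 3. Because the members were chosen with their values seen, these counts describe the members and test nothing.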
